A study of Bos taurus with 41 samples.

Results

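Cytosolic ribosomal protein genes were examined in Day 16 bovine conceptus tissue. Members were taken by symbol alone. The rule kept every gene of the conceptus count table named RPL, RPS or RPLP with a number and the usual paralog letters, together with RPSA and FAU, and left out the RPS6K kinases, whose symbols begin alike. It found 84 table entries under 83 symbols among 16149 genes, because RPS29 had 2 entries. Of these, 49 encode proteins of the large subunit and 35 of the small subunit. All 84 passed the filter on low counts, which kept 15942 genes.

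Ribosomal proteins assemble with ribosomal RNA into the small subunit, which reads the mRNA, and the large subunit, which joins amino acids. Because a ribosome carries most of these proteins once, their mRNAs are usually kept at matched levels. Most of these mRNAs begin with a terminal oligopyrimidine (TOP) tract, through which mTOR signaling controls their translation in growing cells, and the conceptus is in rapid growth as its trophectoderm elongates before implantation.

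Conceptuses were either in vivo derived (IVD), from artificial insemination, or in vitro produced (IVP), from fertilization in the laboratory with semen of the same bull and transfer of the embryo to a recipient on Day 7. They were recovered on Day 16 from crossbred heifers and cut into sections. Sections were cultured for 12 h alone in medium (mono-culture) or laid over an explant of intercaruncular endometrium from cyclic heifers (co-culture). There were 8 IVD mono-culture, 9 IVD co-culture, 5 IVP mono-culture and 7 IVP co-culture libraries. These 29 sections came from 13 conceptuses, 11 of which gave sections to both cultures, and 5 of those gave 2 co-culture sections. IVP conceptuses 62a and 62b shared a recipient. By the study's methods, endometrium of one uterus served both IVD and IVP sections. Section titles open with a code that sections share across groups, and 3 of these codes (14, 39 and 70) occur in both the IVD co-culture (4 sections) and the IVP co-culture (5 sections). What the code stands for is not stated in the labels, and it is not a term of the test below. Sections of one conceptus are not independent, so the p-values below measure the spread between sections. IVP co-culture replicate 1 was grouped by its title, although its treatment field names medium alone.

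Total counts ran from 58583647 to 104436922 per conceptus library. All 11 trophectoderm markers sought were present. Levels are in CPM, the usual depth-scaled count, here scaled by the trimmed mean of M-values (TMM) factor of each library. Their summed level was 5695 to 51244 CPM in IVD mono-culture (median 22895), 15517 to 56581 in IVD co-culture (median 33254), 8855 to 59277 in IVP mono-culture (median 28047) and 21436 to 107619 in IVP co-culture (median 65762), and 2 of the 11, the keratins KRT8 and KRT18, passed the test below as higher in co-culture on average. Of 7 epiblast and mesoderm markers, the table held 4 (SOX2, TBXT and LEFTY2 were not in it), with summed medians of 4.71 and 2.66 CPM in the IVD cultures and 2.16 and 2.66 in the IVP cultures. Of the 3 that were tested, EOMES and MIXL1 passed as lower in co-culture. Of the 11 endometrial markers, the table held 7, without ESR1, OXTR, SERPINA14 and HOXA10, and the summed levels of these 7 overlapped between cultures (13.7 to 172 CPM in IVD mono-culture, 21.7 to 102 in IVD co-culture, 19.03 to 150 in IVP mono-culture and 24.4 to 68.8 in IVP co-culture). Only LUM among them, which encodes a matrix proteoglycan, passed, as lower in co-culture. Of 3 red cell genes in the table (HBB and SLC4A1 were not in it), HBA and HBM passed as higher in co-culture. Their summed level with ALAS2 had medians of 3.34 CPM in IVD mono-culture, 35.3 in IVD co-culture, 12.8 in IVP mono-culture and 23.9 in the IVP co-culture. Mitochondrially encoded genes took medians of 2.00 and 1.46% of counts in IVD mono-culture and co-culture, and 1.98 and 1.06% in the IVP cultures. The part of these cells, and of the mitochondrial share, in the ribosomal protein results was not tested.

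One library stood apart. In IVD co-culture replicate 8, a section of conceptus 47, ribosomal proteins took 15.3% of counts and mitochondrially encoded genes took 5.27%, against at most 8.94% and 2.41% in the other IVD co-culture libraries. The main group results are given with and without it, as are RPLP1, RPS27, RPL22, RPL14 and RPL22L1. Other members that it sets strongly, among them RPL36AL, RPS27A, RPL5, RPL11 and FAU, are given only with it.

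The first question was how much of the conceptus mRNA pool these genes took in each culture. Their share of all counts, which uses no scaling factor, was 6.07 to 7.13% in IVD mono-culture (median 6.50, mean 6.57 ± 0.429 SD, n = 8) and 6.72 to 15.3% in IVD co-culture (median 8.06, mean 8.64 ± 2.61 SD, n = 9). It was 6.49, 6.53, 6.81, 7.21 and 7.81% in the 5 IVP mono-culture libraries and 6.63 to 9.95% in IVP co-culture (median 8.25, n = 7). The ranges of the cultures overlapped in both IVD and IVP tissue, while the median lay higher in co-culture in each. In bulk tissue, fewer cells of a type and less RNA per cell cannot be told apart.

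**Figure D1:**
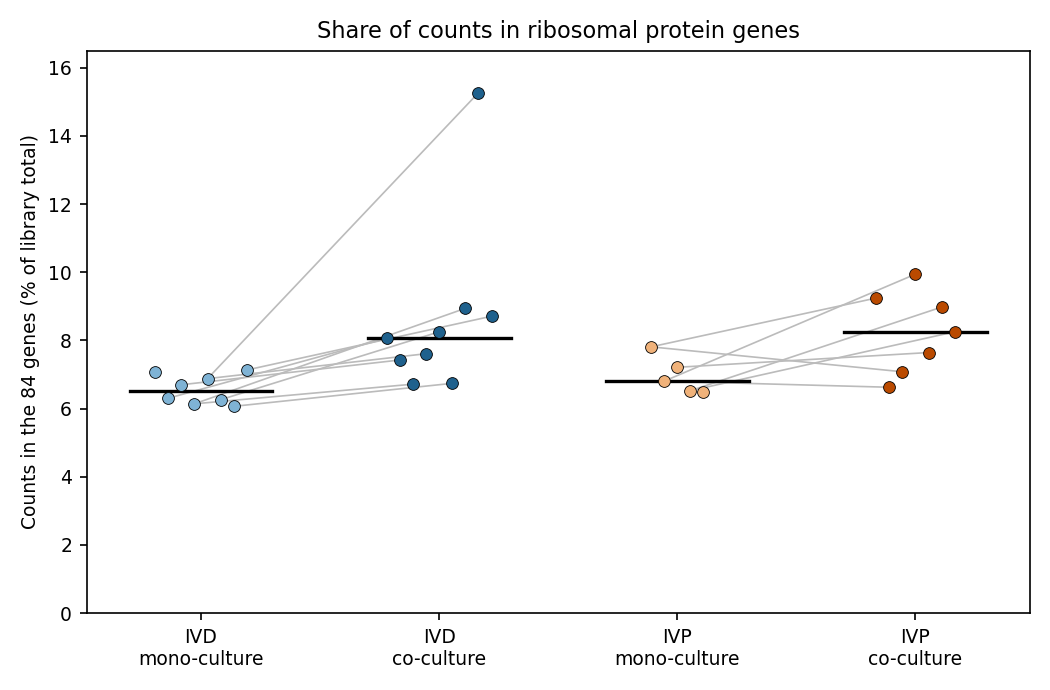
Share of all counts held by the 84 ribosomal protein entries (y axis, percent) by group, with 1 point per library, bars at group medians and lines joining sections of one conceptus. The IVD mono-culture libraries lie between 6.07 and 7.13%, and 1 IVD co-culture library stands at 15.3%.

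Comparison within conceptus removes differences between conceptuses, but not those between the heifers that gave the endometrium. The share was higher in co-culture in 11 of 11 conceptuses, by 0.351 to 4.56 percentage points, when the co-culture sections of a conceptus were averaged. By single section it was higher in 14 of 16 co-culture sections than in the mono-culture section of the same conceptus. The exceptions were 1 section each of IVP conceptuses 23 (6.63 against 6.81%) and 24 (7.08 against 7.81%).

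Sections of one conceptus could differ widely. The median difference of the 84 members from mono-culture, in log2 CPM, was 0.24 and 1.61 in the 2 co-culture sections of conceptus 47, where 1.61 belongs to the library that stood apart. It was 0.39 and 1.06 in conceptus 26, 0.13 and 1.16 in conceptus 23, 0.71 and 0.00 in conceptus 24, and 0.84 and 0.59 in conceptus 62b. In 4 of these 5 conceptuses the sections differed by more than the averaged difference between cultures given below (0.60). In each of the 5, the 2 co-culture sections had different codes at the start of their titles. Differences between sections and between codes therefore cannot be told apart here.

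Averaged per conceptus, the median member difference was above 0 in all 11. Among IVD conceptuses it was 0.43 (8), 0.10 (22), 0.72 (26), 0.93 (47), 0.54 (50), 0.35 (66) and 0.33 (71). Among IVP conceptuses it was 0.65 (23), 0.35 (24), 0.03 (62a) and 0.72 (62b). All 84 members were higher in co-culture in conceptus 47, and 80 in its other section alone, but only 52 of 84 in conceptus 62a. Of all genes tested, between 43.7% (conceptus 62b) and 50.0% (conceptus 22) were higher in co-culture, with 47.1% in conceptus 47 and 46.9% in conceptus 62a. Of the members, 43 were higher in 11 of 11 conceptuses, 75 in at least 10 and 82 in at least 8. The members vary together, as described below, so these counts are not independent. RPL7L1 and RPS27L were higher in only 3.

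**Figure D2:**
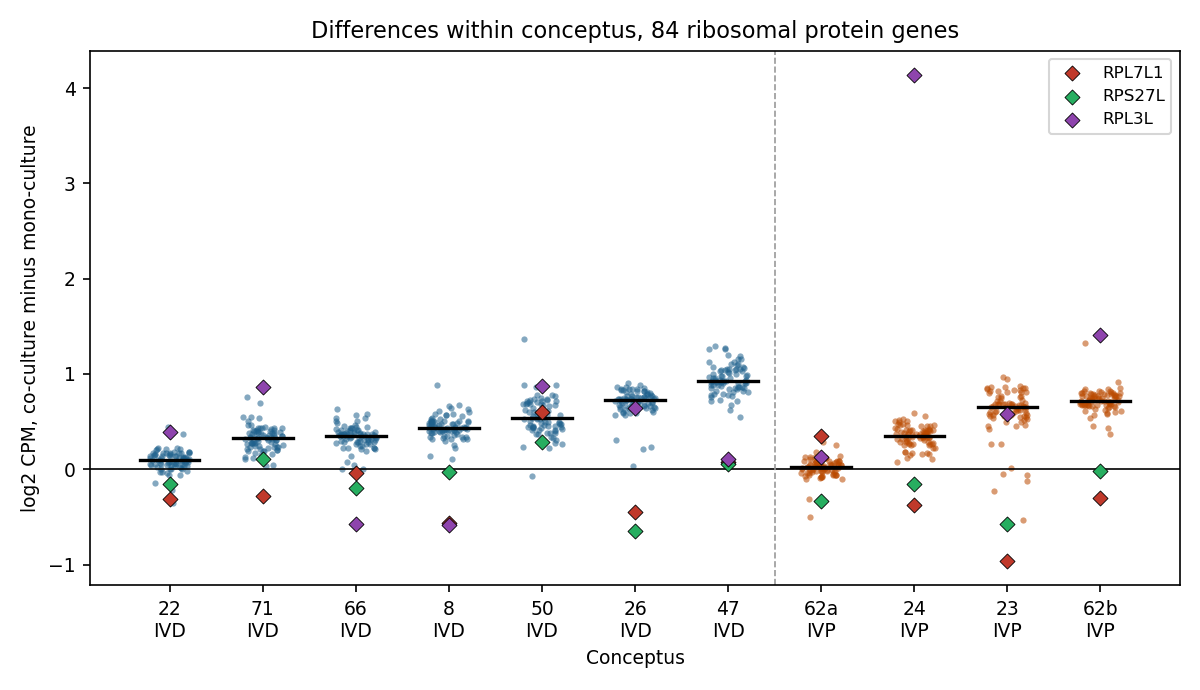
Difference in log2 CPM between co-culture and mono-culture (y axis) within each of the 11 conceptuses with both cultures (x axis), with 1 point per member, bars at medians and diamonds for RPL7L1, RPS27L and RPL3L. Medians run from 0.03 in conceptus 62a to 0.93 in conceptus 47, and the RPL3L point at 4.14 in conceptus 24 has 0 counts in mono-culture, so it depends on the prior count of 1.

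Genes were then compared between groups with edgeR's quasi-likelihood test on the counts, at a false discovery rate (FDR) of 0.05 adjusted over all genes. In IVD tissue, 33 of 84 members (39.3%) were more abundantly expressed in co-culture than in mono-culture and 0 were less so, where 3.11% of all genes tested were higher and 3.22% lower. For the count of 0 lower, 79 members had an unadjusted p under 0.05, all of these higher, and DESeq2 and limma also called 0 lower. The log2 fold change was positive for 83 members, with a median of 0.63 and a range of -0.22 to 0.89, while the median of all genes was -0.02. Large and small subunit proteins shifted alike in size, with 22 of 49 called (median 0.62) and 11 of 35 called (median 0.63). Many members lay near the threshold, with RPS14 just inside (adjusted p = 0.0499) and RPLP1 just outside (adjusted p = 0.0502).

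The IVD count rested on the error model and on single libraries. With conceptus as a block, 0 of 84 members were called in IVD tissue, where 0.602% of all genes were higher, although 75 members had an unadjusted p under 0.05, the smallest adjusted p was 0.0651 and the median was 0.54. DESeq2 called 75 (6.84% of all genes higher) and limma with conceptus as a random block called 47 (5.12% of all genes higher). Without IVD co-culture replicate 8 the count was 1 and the median 0.41, where 1.36% of all genes were higher. The median stayed at 0.59 to 0.68 in the other cases named next in which 1 library was left out. Leaving out any 1 of the 8 IVD mono-culture libraries gave a count of 1 to 3 (1.5 to 2.49% of all genes higher), and leaving out IVD co-culture replicates 1, 7 or 9 gave 3, 1 and 9 (1.73, 1.42 and 2.38% of all genes). Leaving out IVP mono-culture replicates 1, 4 or 5, which are in neither group compared, gave 13, 12 and 20 (2.52, 2.52 and 2.74% of all genes). The filter, scaling factors and shared spread were estimated anew in each such fit. The count was 51, 56 and 62 without IVD co-culture replicates 2, 3 or 5 (3.26, 3.46 and 5.67% of all genes), and 51 without IVP co-culture replicate 4 (3.88% of all genes). It was 0 without any 1 of conceptuses 8, 26, 47 and 71, with the share of all genes in those fits not given here. Over the conceptuses left out 1 at a time, the median was lowest at 0.44, without conceptus 47.

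In IVP tissue, 0 of 84 members were called in either direction between co-culture and mono-culture with edgeR, and 0% of all genes were called higher or lower. At an unadjusted p under 0.05 there were 66 members, the smallest adjusted p was 0.152, and DESeq2 and limma also called 0. The log2 fold change was positive for 82 members, with a median of 0.57 and a range of -0.44 to 1.25, against a median of -0.05 for all genes. The difference of the IVP and IVD responses was tested directly by the interaction term and called 0 members, where 0% of all genes were called (0 members at an unadjusted p under 0.05, DESeq2 and limma 0). Its median over members was -0.06, and 0.17 without IVD co-culture replicate 8.

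The average of the IVD and IVP responses was estimated from all 4 groups. By this comparison 75 of 84 members (89.3%) were higher in co-culture and 0 were lower, where 9.16% of all genes were higher and 9.69% lower. For the count of 0 lower, 82 members had an unadjusted p under 0.05, of which 1, RPL7L1, was lower, and DESeq2 and limma also called 0 lower. The median log2 fold change was 0.60 (range -0.33 to 0.90), with 44 of 49 large and 31 of 35 small subunit proteins called. Without IVD co-culture replicate 8, 73 were called and the median was 0.50, where 8.98% of all genes were higher. With conceptus as a block 25 remained past the threshold, where 6.32% of all genes were higher, with a median of 0.52, and when that library was left out of the blocked fit 55 passed with a median of 0.46, where 5.83% of all genes were higher.

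The count also fell when the code that opens the section titles entered the model. With that code as a covariate, an alternative chosen after the data were seen, only RPL36 was called on average (adjusted p = 0.0499), where 1% of all genes were higher and 1.07% lower. The direction and most of the size held, with 82 members positive, a median of 0.43 and 77 members at an unadjusted p under 0.05. In IVD tissue 0 members were called with edgeR, where 0.0125% of all genes were higher, with 62 members at an unadjusted p under 0.05, a smallest adjusted p of 0.166 and a median of 0.37. In IVP tissue 0 were called and the median was 0.48. Codes 39, 54 and 70 occurred only in co-culture and code 56 only in mono-culture, with 54 in IVD co-culture replicate 8 alone. Culture and code are thus partly confounded in that fit, and their parts in the drop cannot be told apart. By section, the share of counts in members was higher in 9 of 10 co-culture sections whose code was that of the mono-culture section of their conceptus, and in 5 of 6 whose code was another.

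**Figure D3:**
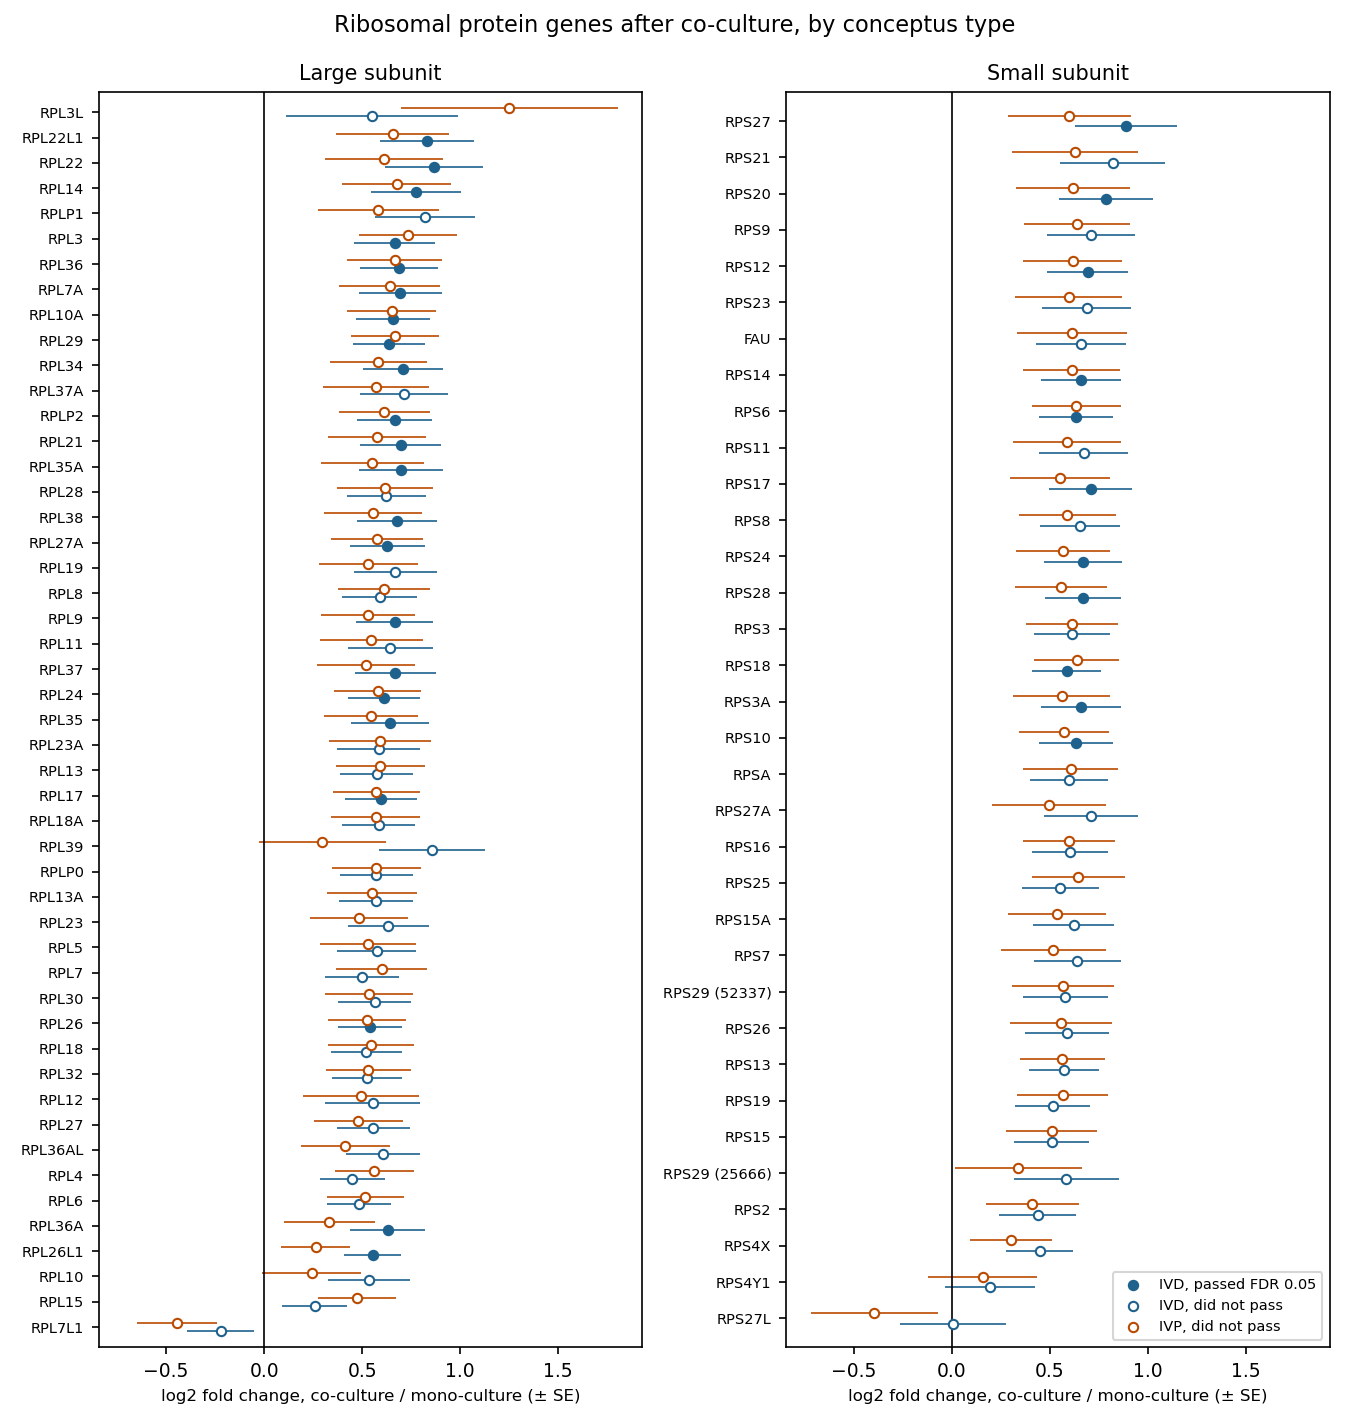
Log2 fold change of co-culture over mono-culture (x axis, with SE) for the ribosomal proteins in IVD (blue) and IVP (orange) tissue, filled where the FDR was under 0.05, with RPS29 entries marked by the end of their identifiers. IVD values are positive for 83 of 84 members and IVP values for 82 of 84, and only 33 IVD points are filled.

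The following members had the smallest p-values in the averaged comparison, and each kept its call with conceptus as a block. RPL29 (ENSBTAG00000018628), a large subunit protein, stood at 491 to 677 CPM in IVD mono-culture (median 574, n = 8) and at 630 to 1769 CPM in IVD co-culture (median 767, n = 9). It stood at 512, 525, 634, 647 and 794 CPM in IVP mono-culture and at 615 to 1349 CPM in IVP co-culture (median 1026, n = 7). The ranges overlapped, since 6 of 9 IVD and 5 of 7 IVP co-culture sections exceeded every mono-culture section of their kind. RPL29 was higher in co-culture in 11 of 11 conceptuses. Its averaged log2 fold change was 0.65 ± 0.15 (SE, adjusted p = 0.00416), with 0.64 ± 0.19 in IVD tissue (adjusted p = 0.0392, not called with conceptus as a block) and 0.67 ± 0.23 in IVP tissue (adjusted p = 0.152).

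RPS18 (ENSBTAG00000002648), a protein of the head of the small subunit, ranged from 811 to 1161 CPM in IVD mono-culture (median 1075) and from 1108 to 2853 CPM in IVD co-culture (median 1406). In IVP tissue it measured 867, 961, 1163, 1177 and 1452 CPM in mono-culture and 1126 to 2352 CPM in co-culture (median 1756). The ranges overlapped in both, and RPS18 was higher in co-culture in 10 of 11 conceptuses. The averaged log2 fold change was 0.61 ± 0.14 (SE, adjusted p = 0.00467).

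RPL3 (ENSBTAG00000003228), which lies near the peptidyl transferase center of the large subunit, ranged from 1070 to 1489 CPM in IVD mono-culture (median 1303) and from 1338 to 4103 CPM in IVD co-culture (median 1724). It measured 1168, 1173, 1301, 1374 and 1791 CPM in IVP mono-culture and 1353 to 3296 CPM in IVP co-culture (median 2252). Here too the ranges overlapped, while 11 of 11 conceptuses were higher in co-culture and the averaged log2 fold change was 0.70 ± 0.16 (SE, adjusted p = 0.00501).

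RPS6 (ENSBTAG00000023462), the small subunit protein that S6 kinases phosphorylate downstream of mTOR, ranged from 492 to 722 CPM in IVD mono-culture (median 627) and from 711 to 1910 CPM in IVD co-culture (median 810). In IVP tissue it measured 518, 545, 701, 720 and 923 CPM in mono-culture and 658 to 1405 CPM in co-culture (median 1118). RPS6 mRNA was higher in 11 of 11 conceptuses, with an averaged log2 fold change of 0.63 ± 0.15 (SE, adjusted p = 0.00541). The counts measure the mRNA and not the phosphorylation of the protein.

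Other large subunit proteins with the smallest p-values gave similar changes. The averaged log2 fold change was 0.65 ± 0.15 (SE, adjusted p = 0.00442) for RPL10A, 0.68 ± 0.16 (adjusted p = 0.00501) for RPL36 and 0.53 ± 0.13 (adjusted p = 0.00634) for RPL26. IVD medians in mono-culture and co-culture were 781 and 996 CPM for RPL10A, 399 and 531 CPM for RPL36, and 275 and 356 CPM for RPL26. RPL36 was higher in 11 of 11 conceptuses, and RPL10A and RPL26 in 10 of 11. RPL14, also of the large subunit, had log2 fold changes of 0.78 ± 0.23 in IVD tissue (SE, adjusted p = 0.0421, not called with conceptus as a block) and 0.73 ± 0.18 on average (adjusted p = 0.00755, and 0.0454 with conceptus as a block), and its 4301 CPM in IVD co-culture replicate 8 stood against at most 1746 CPM in the other IVD co-culture libraries. Without that library the averaged value of RPL14 was 0.58 ± 0.12 (adjusted p = 0.00296).

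The stalk of the large subunit, made of RPLP0 with RPLP1 and RPLP2, recruits the elongation factors to the ribosome. RPLP1 ranged from 916 to 1298 CPM in IVD mono-culture (median 1083) and from 1128 to 1754 CPM in 8 of the IVD co-culture libraries, with 5893 CPM in replicate 8. It measured 929, 990, 1169, 1348 and 1468 CPM in IVP mono-culture and 1141 to 2311 CPM in IVP co-culture (median 1853). The ranges overlapped in both kinds of tissue. The averaged log2 fold change was 0.70 ± 0.20 (SE, adjusted p = 0.0161) for RPLP1, 0.64 ± 0.15 (adjusted p = 0.00579) for RPLP2 (ENSBTAG00000001777) and 0.57 ± 0.15 (adjusted p = 0.00847) for RPLP0. With conceptus as a block RPLP2 kept its call (adjusted p = 0.0399), while RPLP1 (adjusted p = 0.0713) and RPLP0 (adjusted p = 0.0563) did not. Without IVD co-culture replicate 8 the averaged value of RPLP1 was 0.50 ± 0.11 (adjusted p = 0.00383).

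RPL5 and RPL11 enter the large subunit with its smallest RNA and, in human and mouse cells, bind MDM2 when ribosome assembly is disturbed. RPL5 had medians of 599 CPM in IVD mono-culture and 785 in the IVD co-culture, and 660 and 1005 CPM in the IVP cultures. RPL11 had medians of 555 and 686 CPM in IVD tissue, and 566 and 875 CPM in IVP tissue. Both were higher in co-culture in 11 of 11 conceptuses, with averaged log2 fold changes of 0.55 ± 0.16 (SE, adjusted p = 0.017) for RPL5 and 0.60 ± 0.17 (adjusted p = 0.0158) for RPL11. Neither call held with conceptus as a block (adjusted p = 0.0731 for RPL5 and 0.0703 for RPL11).

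Proteins made as fusions, or with roles outside the ribosome, gave changes of similar size. FAU encodes a small subunit protein joined to a ubiquitin-like peptide, RPS27A encodes ubiquitin joined to a small subunit protein, and RPSA is a small subunit protein also known as the laminin receptor. The averaged log2 fold change was 0.64 ± 0.18 (SE, adjusted p = 0.0156) for FAU, 0.60 ± 0.19 (adjusted p = 0.0261) for RPS27A and 0.60 ± 0.16 (adjusted p = 0.00931) for RPSA. IVD medians in mono-culture and co-culture were 342 and 430 CPM for FAU, 773 and 998 CPM for RPS27A, and 2141 and 2906 CPM for RPSA. With conceptus as a block the adjusted p was 0.0644 for FAU, 0.0995 for RPS27A and 0.05004 for RPSA, so that none of these kept its call.

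RPS27 (ENSBTAG00000013866) had the largest IVD response among members with all libraries in the fit. It ranged from 341 to 516 CPM in IVD mono-culture (median 462) and from 499 to 770 CPM in 8 IVD co-culture libraries, while replicate 8 held 2567 CPM. In IVP tissue it measured 325, 424, 494, 550 and 632 CPM in mono-culture and 476 to 945 CPM in co-culture (median 787). Of the 9 IVD co-culture libraries, 8 exceeded every IVD mono-culture library. The log2 fold change was 0.89 ± 0.26 in IVD tissue (SE, adjusted p = 0.0396, not called with conceptus as a block) and 0.74 ± 0.20 on average (adjusted p = 0.0128, and 0.0633 with conceptus as a block). That rank rested on replicate 8, without which RPS27 stood 13 of 84 in IVD tissue at 0.47 ± 0.14 (adjusted p = 0.0680), with 0.54 ± 0.11 on average (adjusted p = 0.00296).

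Several symbols name a paralog and its parent, and these pairs did not all move alike. RPL22 (ENSBTAG00000014423) and RPL22L1 (ENSBTAG00000007394) are alternative forms of one large subunit protein, of which the first restrains the second in mouse cells. RPL22 ranged from 236 to 383 CPM in IVD mono-culture (median 305) and from 324 to 1675 CPM in IVD co-culture (median 443). RPL22L1 ranged from 49.8 to 84.02 CPM in IVD mono-culture (median 69.2) and from 55.5 to 293 CPM in IVD co-culture (median 98.5). Both were higher in co-culture in 11 of 11 conceptuses. The averaged log2 fold change was 0.74 ± 0.20 (SE, adjusted p = 0.0107) for RPL22 and 0.74 ± 0.19 (adjusted p = 0.00816) for RPL22L1. With conceptus as a block RPL22L1 kept its call (adjusted p = 0.0258), the smallest among members in that fit, and RPL22 did not (adjusted p = 0.0525). Without IVD co-culture replicate 8, which held the highest IVD value of each, the averaged values were 0.55 ± 0.11 for RPL22 (adjusted p = 0.00263) and 0.61 ± 0.14 for RPL22L1 (adjusted p = 0.0054).

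RPL26L1 (ENSBTAG00000015099), a paralog of RPL26, had the smallest adjusted p in IVD tissue. It ranged from 29.6 to 41.4 CPM in IVD mono-culture (median 33.7) and from 38.1 to 93.8 CPM in IVD co-culture (median 48.0), and 7 of 9 co-culture libraries exceeded every mono-culture library. In IVP tissue it measured 26.0, 37.9, 39.8, 40.6 and 43.0 CPM in mono-culture and 34.9 to 53.2 CPM in co-culture (median 44.8). The log2 fold change was 0.55 ± 0.15 in IVD tissue (SE, adjusted p = 0.0262) and 0.26 ± 0.18 in IVP tissue (adjusted p = 0.441). RPL26L1 kept its IVD call without each of the 29 libraries in turn, although not with conceptus or replicate number as a block. The call was also lost with no scaling factor, and with the TMM factor or the first title code as a covariate. RPL36A and RPL36AL had averaged log2 fold changes of 0.48 ± 0.15 (adjusted p = 0.026) and 0.51 ± 0.15 (adjusted p = 0.0173), and neither kept its call with conceptus as a block (adjusted p = 0.0668 and 0.0640).

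RPL7L1 (ENSBTAG00000018478), a paralog of RPL7, did not share this direction. It ranged from 71.1 to 158 CPM in IVD mono-culture (median 95.5) and from 60.3 to 140 CPM in IVD co-culture (median 77.8). In IVP tissue it measured 62.0, 75.04, 86.7, 104 and 125 CPM in mono-culture and 54.8 to 79.2 CPM in co-culture (median 67.8). No co-culture library lay above the mono-culture range of its kind. In IVD tissue the top of that range was mono-culture replicate 1 alone, at 158 CPM. The next mono-culture library held 110 CPM, below the highest IVD co-culture value of 140 CPM. The averaged log2 fold change of -0.33 ± 0.13 (SE, adjusted p = 0.0782) did not pass. With no scaling factor it was -0.58 ± 0.16 and passed (adjusted p = 0.0118), in a fit where 21.4% of all genes were lower. RPL7 itself had an averaged log2 fold change of 0.55 ± 0.15 (adjusted p = 0.0125, and 0.0630 with conceptus as a block).

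RPS27L (ENSBTAG00000012898), a paralog of RPS27 that p53 induces in human cells, was low. Its ranges were 11.5 to 20.5 CPM in IVD mono-culture (median 18.5) and 9.99 to 29.5 CPM in IVD co-culture (median 13.5). In IVP tissue it measured 7.22, 7.23, 12.8, 17.4 and 21.7 CPM in mono-culture and 5.73 to 18.6 CPM in co-culture (median 7.63). Mono-culture and co-culture overlapped throughout, and the averaged log2 fold change was -0.19 ± 0.21 (SE, adjusted p = 0.552).

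RPL3L, the form of RPL3 known from heart and skeletal muscle, was near the detection limit, with counts of 0 to 27 per library. Its averaged log2 fold change of 0.90 ± 0.35 (SE, adjusted p = 0.0715) was the highest of the members and did not pass. RPS4X and RPS4Y1 encode forms of one small subunit protein, and their averaged log2 fold changes were 0.38 ± 0.13 (adjusted p = 0.0499) and 0.18 ± 0.18 (adjusted p = 0.519). RPS4X lost its call with conceptus as a block (adjusted p = 0.149) and without any of 19 single libraries. RPL15, with 0.37 ± 0.13 (adjusted p = 0.0486), lost its call with conceptus as a block (adjusted p = 0.141) and without any of 16 single libraries.

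Beside RPL7L1, RPS27L, RPL3L and RPS4Y1, another 5 members did not pass in the averaged comparison. These were RPS2 (0.43 ± 0.15 SE, adjusted p = 0.0519), RPL12 (0.52 ± 0.19, adjusted p = 0.0544), RPL39 (0.58 ± 0.21, adjusted p = 0.0549), RPL10 (0.39 ± 0.16, adjusted p = 0.0943) and 1 of the RPS29 entries (ENSBTAG00000025666, 0.46 ± 0.21, adjusted p = 0.12), which had 59 to 281 counts per library. The other RPS29 entry (ENSBTAG00000052337) passed, with 0.57 ± 0.17 (adjusted p = 0.0193). Ribosomal protein genes have many near-identical copies in mammalian genomes. How reads that fit several of them were counted is not given in the sources used here, so the split between such entries is uncertain.

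**Figure D4:**
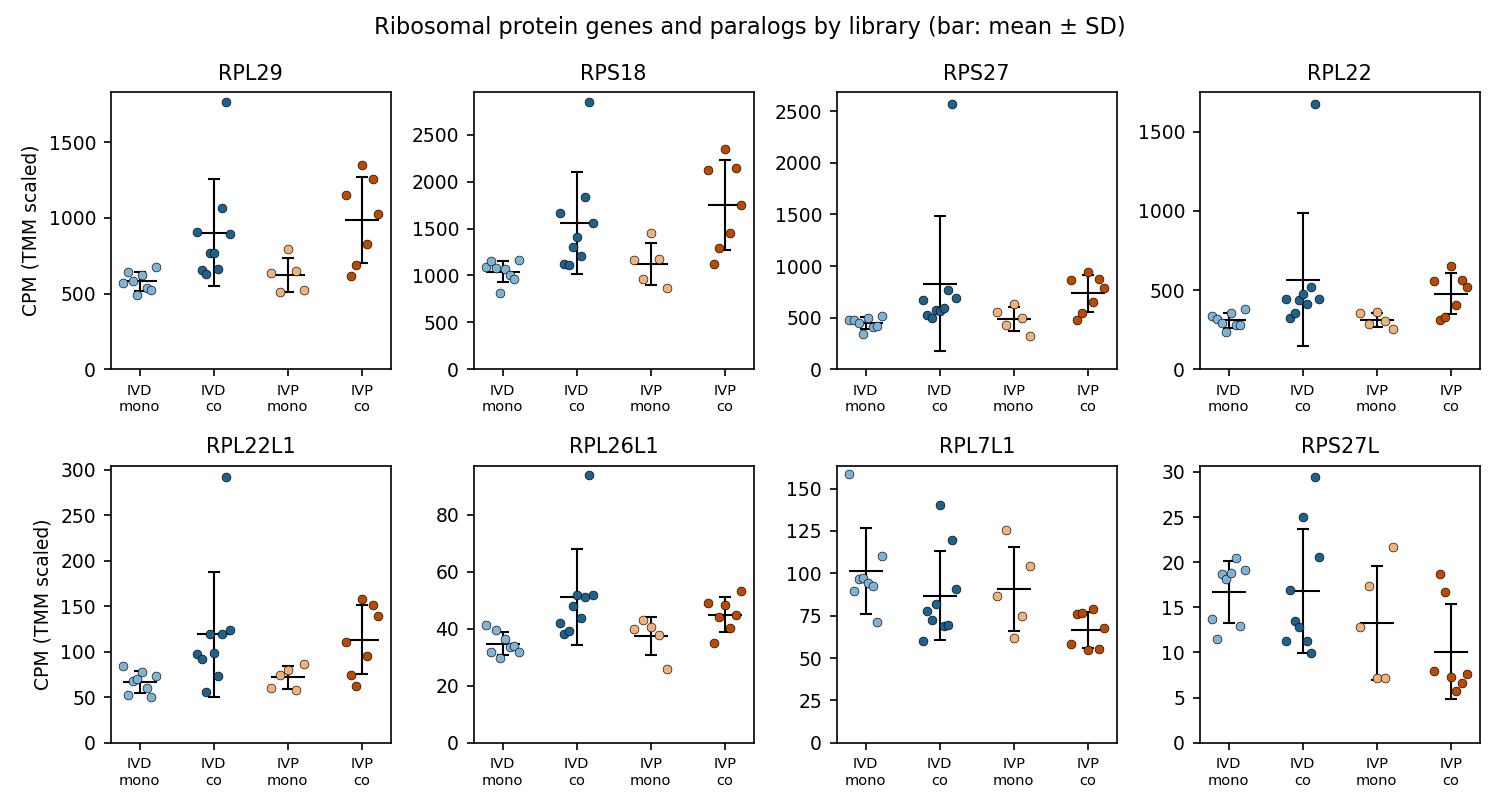
CPM of RPL29, RPS18, RPS27, RPL22, RPL22L1, RPL26L1, RPL7L1 and RPS27L (y axes) by group, with 1 point per library and bars at the mean ± SD. In RPS27 the library that stood apart lies at 2567 CPM and the next IVD co-culture library at 770 CPM, while RPL7L1 lies at 54.8 to 79.2 CPM in IVP co-culture.

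Conceptus origin was compared within each culture. Between IVP and IVD tissue in mono-culture, 0 members were called with edgeR and 0% of all genes were called. Also 0 members had an unadjusted p under 0.05, and DESeq2 called 0. The median log2 fold change of IVP over IVD was 0.12, with 80 members positive. The lowest values were -0.72 ± 0.53 (SE) for RPL3L, -0.33 ± 0.32 for RPS27L and -0.16 ± 0.20 for RPL7L1, and the highest were 0.27 ± 0.23 for RPS2, 0.26 ± 0.31 for RPS29 (ENSBTAG00000025666) and 0.23 ± 0.21 for RPL32.

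In co-culture, 0 members were called between IVP and IVD tissue with edgeR or DESeq2, where 0.0188% of all genes were higher and 0.00627% lower in IVP tissue. The median was 0.05, 0.29 without IVD co-culture replicate 8, and 0.16 with the first title code as a covariate, where 0 members were called. Some of these sections share that code across origins, as given above. An unadjusted p under 0.05 was reached by 2 members, both lower in IVP tissue. RPS27L had a log2 fold change of -0.73 ± 0.28 (SE, adjusted p = 0.28), with medians of 13.5 CPM in IVD and 7.63 CPM in IVP co-culture, and RPL7L1 one of -0.38 ± 0.18 (adjusted p = 0.348). RPL39 followed at -0.45 ± 0.28 (adjusted p = 0.487). Its medians were close, at 219 CPM in IVD and 210 CPM in IVP co-culture. IVD co-culture replicate 8 held 855 CPM of RPL39, where the next library of its group held 364 CPM. The highest values were 0.24 ± 0.20 for RPS2 and 0.23 ± 0.18 for RPL32. In the difference of responses, values ran from -0.56 ± 0.42 for RPL39, -0.40 ± 0.42 for RPS27L and -0.30 ± 0.30 for RPL36A up to 0.11 ± 0.26 for RPL4, 0.22 ± 0.26 for RPL15 and 0.70 ± 0.69 for RPL3L. All 6 of these differences of responses were within 1.5 SE of 0.

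How closely the members varied together was described over the 29 libraries after removal of group means. A single component held 83.0% of the variance of the 84 members. The correlation of a member with the mean of the others had a median of 0.970 and exceeded 0.9 for 70 members, with the highest value of 0.993 for RPL34. Only RPL7L1 (0.0383), RPL3L (0.0116) and RPS27L (-0.122) lay below 0.5, followed by RPL10 at 0.589, RPS4Y1 at 0.706 and RPL39 at 0.771. Without IVD co-culture replicate 8 that component held 74.0%, the median correlation was 0.953 and 67 members exceeded 0.9. The points share their library's scaling, and no test was made.

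The members were next set beside the TMM scaling factors, since these factors set what counts as a change. The mean log2 TMM factor of IVD tissue was 0.136 in mono-culture and -0.0389 in co-culture, and that of IVP tissue 0.114 and -0.187. Within conceptus it was lower in co-culture in 9 of 11, by a mean of -0.179 ± 0.174 (SD), which differed from 0 by an exact two-sided permutation test over sign flips (p = 0.0107, where the smallest possible is 0.000977). Factors computed without the 84 members gave a similar difference of -0.182 (exact permutation p = 0.0117).

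With group means removed, the log2 TMM factor correlated with the share of counts in members at r = -0.641 (rho = -0.644, n = 29 libraries), and at -0.596 without the 2 libraries farthest from the median factor. Over the 13 conceptus means, r was -0.415. Within groups it was -0.410 in IVD mono-culture (n = 8), -0.836 in IVD co-culture (n = 9, and -0.485 without the 2 farthest) and -0.911 in IVP co-culture (n = 7, and -0.731 without the 2 farthest). These values are a description, since sections share conceptuses. The share is not scaled by the factor, whereas the mean log2 CPM of the members is (r = -0.856), which is in part by construction.

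**Figure D5:**
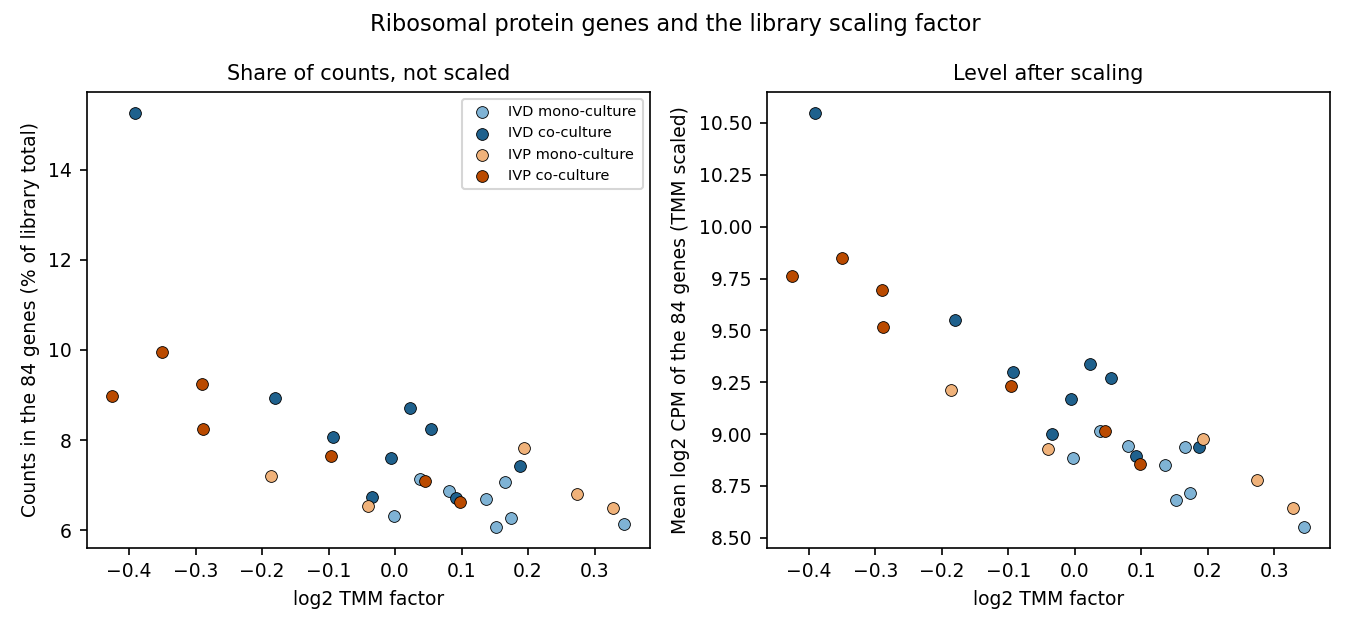
Share of counts in ribosomal proteins (left, percent) and their mean log2 CPM after scaling (right) against the log2 TMM factor (x axes) of the 29 conceptus libraries, colored by group. Libraries with lower factors have higher shares (r = -0.641 with group means removed), and the library at 15.3% has a factor of -0.392.

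Direction held when no factor was applied, with fewer calls. Without scaling, 60 of 84 members were higher on average and 1, RPL7L1, was lower, where 3.41% of all genes were higher and 21.4% lower. The median of all genes then moved to -0.27 and that of the members to 0.33. In IVD tissue 17 members were higher, where 1.35% of all genes were. Within conceptus, with no factor, the median member difference was still above 0 in 11 of 11, at 0.04 to 0.65.

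When the log2 TMM factor entered the model as a covariate, 0 members were called with edgeR on average, where 0.00627% of all genes were higher, with 0 members at an unadjusted p under 0.05 and a median of 0.072. In IVD tissue 0 were called, where 0.464% of all genes were higher, with 16 members at an unadjusted p under 0.05 and a median of 0.22, and in IVP tissue the median was -0.059. Since the factor itself differed between the cultures, culture and factor cannot be told apart in that fit. With the covariate 75 members were positive on average, against 82 without it. RPS27A and RPS4X, higher on average, had values of -0.036 (adjusted p = 0.928) and -0.061 (adjusted p = 0.804) with the covariate.

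Genes that work with the ribosomal proteins were grouped by role. RACK1, a scaffold on the small subunit, is a ribosomal component under another name. It was higher on average by 0.52 ± 0.13 (SE, adjusted p = 0.00606) and kept its call with conceptus as a block (0.49 ± 0.16, adjusted p = 0.0477) and without scaling (0.26 ± 0.076, adjusted p = 0.0143). It was not called with the TMM factor as a covariate (0.11 ± 0.081, adjusted p = 0.527).

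TOP mRNAs that encode no ribosomal protein, mostly translation factors, moved the same way. Of 26 in the table, 18 were higher on average and 0 were lower, with a median of 0.48, where 9.16% of all genes were higher and 9.69% lower. In the fit with conceptus as a block 9 were higher and 0 lower (6.32 and 7.06% of all genes), and with no scaling factor 11 and 0 (3.41 and 21.4% of all genes). Among them were EIF4A2, a helicase of initiation (0.98 ± 0.20 SE, adjusted p = 0.00245), EEF2, the translocation factor (0.59 ± 0.12, adjusted p = 0.00287), NPM1, a nucleolar chaperone (0.63 ± 0.13, adjusted p = 0.00316), and EEF1D, an elongation factor subunit (0.76 ± 0.16, adjusted p = 0.0034). Each of these 4 kept its call with conceptus as a block. In IVD tissue alone 7 passed, where 3.11% of all genes were higher.

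Ribosome biogenesis factors, which build ribosomes in the nucleolus, did not follow the ribosomal proteins. Of 50, 5 were higher (9.16% of all genes) and 12 lower (9.69% of all genes) on average, with a median of -0.20. The conceptus block left 4 higher and 6 lower, where 6.32 and 7.06% of all genes were. The higher ones included TAF1D (0.91 ± 0.16 SE, adjusted p = 0.000987) and POLR1D (0.62 ± 0.12, adjusted p = 0.00213), and the lower ones POLR1B (-0.65 ± 0.15, adjusted p = 0.0047) and HEATR1 (-0.54 ± 0.13, adjusted p = 0.00505), all of them parts of the RNA polymerase I pathway that makes ribosomal RNA. Each of these 4 kept its call with the block. Without IVD co-culture replicate 8, 5 were higher and 8 lower, where 8.98% of all genes were higher. Without scaling 2 were higher and 28 lower, where 3.41 and 21.4% of all genes were.

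Genes that control ribosomal protein mRNAs moved in both directions. Of 21, 5 were higher and 4 lower on average (median -0.04), where 9.16 and 9.69% of all genes were. Under the conceptus block 4 were higher and 3 lower, where 6.32% of all genes were higher. With no scaling factor 1 was higher and 6 lower, where 3.41 and 21.4% of all genes were. DDIT4, an inhibitor of mTOR complex activity, was higher by 1.56 ± 0.40 (SE, adjusted p = 0.00896), as was EIF4EBP1, a repressor of cap-dependent initiation (0.49 ± 0.12, adjusted p = 0.00663). SESN2, a leucine sensor upstream of mTOR, was lower (-0.53 ± 0.12, adjusted p = 0.00413), as was LARP4, which binds mRNA tails (-0.71 ± 0.18, adjusted p = 0.00808). These 4 kept their calls with the block, with DDIT4 at 1.59 ± 0.37 (adjusted p = 0.0200). No member of any of these lists was called in IVP tissue alone, where 0% of all genes were called.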

How the data were processed

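Whole-number gene counts of 29 conceptus and 12 endometrial libraries were used as deposited by the authors, who had trimmed reads with Trimmomatic and aligned them to the bovine assembly ARS-UCD1.2, using HISAT2 for conceptus and STAR for endometrium. Counting was by featureCounts, with no normalization of the counts. Versions of these tools, strand and the handling of reads with several matches are not given in the sources used here. The smallest mean count in the conceptus table was 2.48, so low genes had been removed before deposit. Of 40 endometrial columns, 28 match no sample and were left out. No coordinates or sequences are given, since the reference supplied is of another assembly and holds no sequence.

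Groups came from sample titles. The members, gene lists and comparisons were chosen with earlier results of these data known. Members named were the 8 with the smallest p in the averaged co-culture effect, the 3 highest and 3 lowest fold changes of each comparison, the stalk proteins, RPSA, FAU, RPS27A, RPS6, RPL5, RPL11, paralogs with their parents, and up to 4 genes with the smallest p from each list. RPS14, RPL34 and RPL12 were named after their values were seen. RPL10L and RPL39L, also on that rule, were not among the genes of the conceptus table. Some genes that enter the counts over all members are not reported here by name.

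The main test was the quasi-likelihood test of edgeR 4.0.16 (R 4.3.3). A single model with a mean for each of the 4 groups and no further term was fitted to all 29 libraries after TMM scaling. Genes were kept by filterByExpr with its minimum count at 10 and minimum total at 15, and p-values were adjusted over all 15942 kept genes (Benjamini-Hochberg, FDR 0.05). CPM use TMM-scaled library totals, and log2 CPM a prior count of 1. limma 3.58.1 (voom) and DESeq2 1.42.0 were alternatives, with other factors, filters, covariates, blocks, and single libraries or conceptuses left out. No library was a copy of another (over pairs, the chi-square statistic was at least 113 per degree of freedom, in genes with counts of 10 or more).

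Samples were paired by the conceptus code of the titles. After removal of group means, 16 pairs of one conceptus in both cultures correlated at 0.120 to 0.817 (median 0.588) over the 1000 most variable genes. Libraries with equal replicate numbers had a median of -0.317, with 4 of 13 pairs above 0.1, so those numbers were not taken as pairs.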

Additional observations from a re-analysis of the deposited data

Results flagged for a closer look

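Of 152 sets of values from groups of 5 to 9 libraries that were searched for a lone extreme value, 33 had one, where chance gives about 1 in 20. IVD co-culture replicate 8 accounted for 31 of them, and the members move together, so these are not independent. In that library members took 15.3% of counts and mitochondrially encoded genes 5.27%. Its large subunit values in CPM were 5893 for RPLP1, 6855 for RPLP0, 1844 for RPLP2, 5151 for RPL4, 4301 for RPL14, 4103 for RPL3, 2724 for RPL7, 2298 for RPL10A, 2178 for RPL5, 2138 for RPL11, 1769 for RPL29, 1675 for RPL22, 1565 for RPL32, 1425 for RPL36, 855 for RPL39, 828 for RPL36A, 704 for RPL26, 450 for RPL36AL, 293 for RPL22L1 and 93.8 for RPL26L1. Its small subunit values in CPM were 7266 for RPS2, 6791 for RPSA, 3678 for RPS27A, 2853 for RPS18, 2567 for RPS27, 1991 for RPS4X, 1910 for RPS6, 1418 for FAU and 5.03 for RPS29 (ENSBTAG00000025666). Each was the highest of its group. The next highest library held 1754 CPM of RPLP1, 770 of RPS27 and 519 of RPL22. What sets this library apart was not tested.

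In IVP co-culture replicate 5, mitochondrially encoded genes took 2.73% of counts, where the next library of its group had 1.40%. In IVD mono-culture replicate 1, RPL7L1 stood at 158 CPM, where the next library of its group had 110 CPM.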

How the results depend on the processing

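The positive direction of the members' median in co-culture, in IVD tissue, IVP tissue and on average, held under each alternative but 1. With the TMM factor as a covariate the median was 0.22 in IVD tissue, -0.059 in IVP tissue and 0.072 on average, 75 of 84 members were positive on average, and RPS27A (-0.036) and RPS4X (-0.061) were not. The count of members called moved far more. In IVD tissue it was, with the percent of all genes called higher in parentheses, 61 (4.12) with upper quartile factors, 17 (1.35) with no scaling factor, 0 (0.464) with the covariate, 65 (5.97) with a mean CPM of at least 1, 10 (3.62) with only the groups compared, 69 (7.34) with 1 factor of unwanted variation, 68 (4.05) with sections of one conceptus summed, 75 (6.84) with DESeq2 and 0 (0.0125) with the first title code as covariate. It was 0 (0.602) with the replicate block by conceptus, 0 (0.0816) in that block without IVD co-culture replicate 8 and 0 (0.125) in it with no scaling factor. With a replicate number block it was 0 (1.5). The average count was 0 (0.00627) with the TMM covariate and 1 with the first title code, whose share is given above. It was 25 (6.32) with the replicate block by conceptus. In that block with no scaling factor it was 8, with the share of all genes not given here. With no scaling factor 1 member, RPL7L1, was called lower, blocked or not. The fit with no scaling factor and no block called 21.4% of all genes lower. The block called 0 in IVP tissue and in the difference of responses, as did the fit without it.

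Leaving out 1 library or 1 conceptus gave 0 to 62 members called higher in IVD tissue (0 without any 1 of conceptuses 8, 26, 47 and 71), 58 to 79 on average (58 without conceptus 62b), and 0 to 1 called lower on average. With all libraries in the fit, 3.11% of all genes were higher in IVD tissue, and 9.16% higher and 9.69% lower on average. Beyond those above, the shares of all genes in the fits with 1 library or 1 conceptus left out are not given here. Of the 75 members called on average, 72 held their call without each library in turn.

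Of the other lists, 0 genes were called on average with the covariate in either direction. For TOP mRNAs 11 were higher with no scaling factor and 9 with the replicate block. For biogenesis factors 2 were higher and 28 lower with no scaling factor, and 6 lower with the block. For control genes 1 was higher and 6 lower with no scaling factor, and 4 higher and 3 lower with the block. Of all genes, 3.41% were higher and 21.4% lower with no scaling factor, and 6.32% were higher with the block. With the 50 most counted other genes taken out of the total, the mean share in members was 8.15% in IVD mono-culture, 11.2% in the IVD co-culture, 8.69% in IVP mono-culture and 11.0% in the IVP co-culture. The relation with the TMM factor was -0.641 with the share in place of the mean log2 CPM. With IVP mono-culture n = 5, differences of the size seen in IVP tissue did not pass, which does not show that they are absent. The alternatives that combine the block with another choice, the first title code, and those of the lists, were chosen after seeing the data. The causes of these shifts were not tested.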

Other observations

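In the 12 libraries of endometrial explants cultured with IVP conceptuses, the same symbol rule found 85 entries, and these took 5.27 to 9.71% of counts (median 5.89%). RPL10L, a paralog of RPL10 known from the testis, was among them and had 0 counts in each of the 12. These libraries were aligned with another program than the conceptus libraries, so the shares were not compared.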
